A study of Mus musculus with 30 samples.

Results

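The genes described here copy DNA or supply its building blocks: the replicative helicase, the factors that load it, the DNA polymerases with their sliding clamp and clamp loader, the single-strand binding and lagging-strand proteins, the enzymes that make deoxynucleotides, and factors that act on chromatin or repair behind the fork. All probe sets whose array annotation gives 1 of 40 listed symbols were taken. The array measured 38 of the 40 genes with 70 probe sets, out of 12393 genes with a symbol of their own; RNA levels of Gins2 and Chaf1a were not analysed here. Of the 38 genes, 15 had 1 probe set and 23 had several, and each gene is represented below by its probe set with the highest mean over all arrays. Total RNA of 5 tissues (brain, kidney, stomach, liver, salivary) came from newborn mice of mixed SV129/C57BL/6 background, either wild type or null for the nuclear receptor ERRγ, the product of Esrrg. Each of the 10 groups of tissue and genotype had 3 Affymetrix MOE430A arrays, 30 in all. The labels give the age as neonatal and the sex as unknown, name no treatment, and do not state how the null allele was built, whether animals were pooled or whether each array stands for its own animal. P-values therefore measure the spread between these arrays, which may be partly technical.

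DNA replication is licensed when the origin-bound factors Cdc6 and Cdt1 load the ring of Mcm2 to Mcm7, and it fires when Cdc45 and the GINS complex turn that ring into an active helicase. Most genes of the set are transcribed as a cell passes from G1 into S phase, largely under the E2F transcription factors, and they are commonly read as markers of cycling cells. In bulk tissue, fewer cells of a type and less RNA per cell cannot be told apart.

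RefSeq promoter windows of 300 bases, from 250 before to 50 after the annotated start on GRCm38.p6, matched 34 of the 40 genes with 43 windows. They were searched on both strands for the E2F letters TTTGGCGC, TTTCGCGC, TTTCCCGC and TTTGCCGC and for CCAAT, the box bound by NF-Y. The E2F letters overlap each other where they meet head to head. E2F letters stood in the windows of 14 of the 34 genes (41.2%) and of 704 of 27025 genes in the table (2.6%). CCAAT stood in those of 20 genes (58.8%), against 41.1% of all genes, and both stood in 8 (23.5%), against 1.12%. The median GC content was 57.7% in the 43 windows and 52.7% in all 32851 windows. Shown, with any match of either kind in capitals, are Mcm3, Mcm5, Mcm6 and Rrm2. RNA of Mcm3, Mcm5 and Mcm6 was lower in both null stomach and null salivary tissue. Rrm2 fell most among the members tested in salivary tissue. The windows lie at chr1:20820263-20820562 on the minus strand, chr8:75109259-75109558 on the plus strand, chr1:128359656-128359955 on the minus strand and chr12:24708004-24708303 on the plus strand, and each is printed in the direction of the gene.
Mcm3: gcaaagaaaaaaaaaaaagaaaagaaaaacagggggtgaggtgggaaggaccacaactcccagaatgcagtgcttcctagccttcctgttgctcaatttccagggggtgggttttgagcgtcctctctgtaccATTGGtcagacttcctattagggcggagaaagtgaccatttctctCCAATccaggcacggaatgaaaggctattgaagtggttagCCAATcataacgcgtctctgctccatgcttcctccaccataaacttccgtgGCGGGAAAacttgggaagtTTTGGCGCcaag
Mcm5: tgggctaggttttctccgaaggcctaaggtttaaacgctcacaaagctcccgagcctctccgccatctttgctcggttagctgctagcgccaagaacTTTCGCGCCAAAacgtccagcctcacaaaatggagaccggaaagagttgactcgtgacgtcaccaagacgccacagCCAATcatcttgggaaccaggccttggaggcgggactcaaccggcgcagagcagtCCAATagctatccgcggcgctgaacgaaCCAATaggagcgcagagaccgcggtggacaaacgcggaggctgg
Mcm6: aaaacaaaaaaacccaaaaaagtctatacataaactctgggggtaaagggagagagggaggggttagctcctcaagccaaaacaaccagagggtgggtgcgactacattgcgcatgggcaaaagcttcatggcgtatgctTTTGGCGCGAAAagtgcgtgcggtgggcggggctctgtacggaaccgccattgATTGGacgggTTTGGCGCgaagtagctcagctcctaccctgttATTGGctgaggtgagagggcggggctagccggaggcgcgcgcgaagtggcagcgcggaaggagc
Rrm2: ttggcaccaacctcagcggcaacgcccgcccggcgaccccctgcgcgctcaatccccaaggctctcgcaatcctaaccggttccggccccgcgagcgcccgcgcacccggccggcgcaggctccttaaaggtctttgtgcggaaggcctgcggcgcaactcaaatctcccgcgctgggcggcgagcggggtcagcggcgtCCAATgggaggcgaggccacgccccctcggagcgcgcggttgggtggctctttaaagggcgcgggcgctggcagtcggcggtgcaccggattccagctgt
Counted from the annotated start, with upstream bases negative, the Mcm3 window has its E2F letters at 19 and 38 and CCAAT at -117, -72 and -32. Mcm5 has an overlapping pair of E2F matches at -153 and -149 and CCAAT at -77, -22 and 6. Mcm6 has such a pair at -110 and -106, a further match at -47, and CCAAT at -57 and -14. Rrm2 has no E2F letters in its window and CCAAT at -50. Windows of Chaf1b, Dut, Fen1, Pola2, Rfc4, Rfc5, Tk1 and Tyms held neither. A match is a stretch of letters and not a measured binding site.

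Values below are log2 MAS5 signals, the Affymetrix summary of the probes of a probe set, as deposited, and differences are null minus wild type on that log2 scale. A probe set was tested in a tissue where its mean of the 6 values was at or above the 40th percentile, and p-values of limma's moderated test were adjusted over all tested probe sets of the tissue by Benjamini-Hochberg. The arrays had medians between 5.80 and 6.08. The single Esrrg probe set stayed between 5.89 and 6.76 on all 30 arrays. Its null mean was above the wild-type mean in stomach (6.48 against 5.99, with no overlap), brain and kidney, and slightly below it in liver (6.47 against 6.49) and salivary tissue (6.39 against 6.41), where the groups overlapped. Where it lies relative to the deleted sequence is not known here, so it checks no label, and "null" below means labelled null. Tissue markers followed the tissue labels: Snap25 of neurons had a mean of 10.02 ± 0.208 (SD, n = 3) in wild-type brain, Umod of kidney tubules 10.75 in kidney, Alb of hepatocytes 12.94 in liver and Bpifa2 of salivary acini 12.93 in salivary tissue. Atp4a, a proton pump subunit of parietal cells, had a mean of 10.46 in wild-type and 5.43 in null stomach. Xist, transcribed from the inactive X, was between 6.34 and 7.22 on all null arrays numbered 1 and all wild-type arrays numbered 3, and between 10.68 and 11.38 on the others. Same-numbered arrays of a genotype thus went together across tissues, and each group had 1 array of low and 2 of high Xist.

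The replication genes were lower in null salivary and null stomach tissue, and no member passed the test in either direction in kidney, liver or brain. In salivary tissue 32 of the 36 tested members fell and none rose, where 4.37% of all tested genes fell and 3.75% rose. In stomach 29 of 37 fell and none rose, where 12.2% of all genes fell and 9.95% rose. These totals, and the counts by role below, include members that passed the filter only through their wild-type values. They are named with the polymerase genes. The median member difference was -1.37 in salivary tissue and -0.84 in stomach, and that of all tested genes was 0.03 and 0.02. Averaged over its tested members, a wild-type salivary array had 8.03, 8.18 or 8.21 and a null one 6.60, 6.99 or 6.67. The stomach averages were 7.68, 7.79 and 7.82 against 6.52, 7.32 and 6.70 on the null arrays. In both tissues the groups were apart, and the second null stomach array stood nearest to wild type. It was the highest of the 3 null arrays for 33 of the 37 members.

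**Figure D1:**
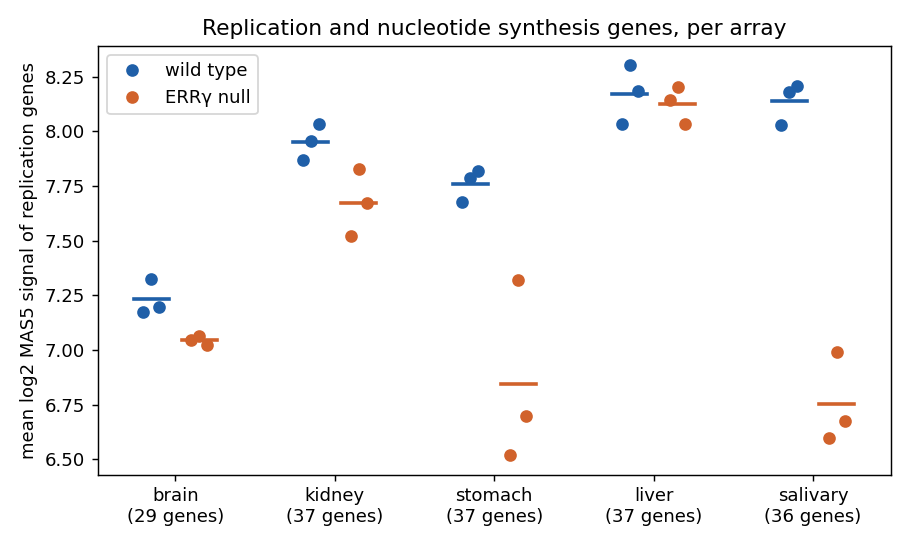
Mean log2 MAS5 signal of the tested replication genes on each array (points), by tissue and genotype, with the group mean as a bar; the number of genes averaged stands under each tissue. Null salivary arrays lie between 6.60 and 6.99 against 8.03 to 8.21 in wild type, null stomach arrays between 6.52 and 7.32 against 7.68 to 7.82, and the liver groups overlap.

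Of the helicase genes, all 8 measured fell in salivary tissue and 5 of 8 fell in stomach. Mcm6, a subunit of the Mcm2 to Mcm7 ring, had 9.11, 9.35 and 9.28 on wild-type and 6.38, 7.59 and 7.11 on null salivary arrays. The groups were far apart, with a difference of -2.22 (SE 0.267, adjusted p = 0.00231, limma). Mcm5 had 6.40, 6.64 and 6.46 on wild-type and 4.11, 4.97 and 4.28 on null stomach arrays, a difference of -2.05 (SE 0.242, adjusted p = 0.00172, limma). All 3 null stomach values of Mcm5 were below the tissue's filter level of 5.35, so the signal there is close to that of undetected genes. Mcm3 fell in both tissues by nearly the same amount: it had 7.68, 8.14 and 7.88 against 6.34, 6.55 and 5.96 in salivary tissue and 7.99, 7.88 and 8.24 against 6.33, 7.21 and 6.05 in stomach. Cdc45, which joins the ring to make it an active helicase, had 7.04, 6.93 and 7.08 against 5.20, 5.54 and 4.91 in salivary tissue, a difference of -1.80 (adjusted p = 0.00237, limma). In stomach its groups did not overlap either, with a difference of -0.64 that missed the threshold (adjusted p = 0.0627). Mcm2 in stomach (-0.82, adjusted p = 0.0529) also missed it, though its other probe set fell there by 1.80 (adjusted p = 0.0139, limma). Mcm10, a scaffold of helicase activation, fell by 0.56 in salivary tissue and differed by -0.02 in stomach.

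The licensing genes fell in both tissues wherever they were bright enough to be tested there. Cdt1, which brings the ring to origins, had 9.95, 9.87 and 9.90 on wild-type and 8.24, 8.53 and 8.52 on null salivary arrays, a difference of -1.48 (SE 0.134, adjusted p = 0.00066, limma). Its stomach values of 8.86, 9.27 and 9.21 against 8.15, 8.90 and 8.07 touched, since the second null array exceeded the first wild-type array, and it passed there with -0.74. Gmnn, the inhibitor of Cdt1 known as geminin, fell by 1.32 in salivary tissue and by 0.70 in stomach, where the groups also overlapped. Cdc6, which recruits Cdt1 and the ring, had 6.10, 6.20 and 6.56 against 4.36, 5.40 and 4.64 in stomach, a difference of -1.49 (adjusted p = 0.00826, limma). In salivary tissue it was too low on average to be tested: it had 6.73, 6.28 and 6.35 against 2.34, 4.03 and 4.33, with a wide gap between the groups.

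Among the polymerase genes 5 of 8 fell in each of the 2 tissues. Pole, the catalytic subunit of the leading-strand polymerase, had 7.23, 7.21 and 7.25 on wild-type and 3.76, 5.86 and 4.39 on null salivary arrays, and 6.42, 6.52 and 6.61 against 2.50, 5.78 and 4.68 in stomach. The differences of -2.56 (adjusted p = 0.0106) and -2.20 (adjusted p = 0.0435, limma) rest on null values that spread widely near the bottom of the scale, so their size is uncertain. Null means lay under the filter level for Mcm5, Cdc45, Pole, Rfc3, Hells and Rad54l in salivary tissue and for Mcm5, Cdc6, Pole, Rfc3 and Chaf1b in stomach. These members were tested there only through their higher wild-type values, and no count was made without them. In salivary tissue and stomach, in that order, Pole2, the second subunit of the leading-strand polymerase, fell by 1.07 and 0.98. Pold2, a subunit of the lagging-strand polymerase, fell by 1.09 and 1.13. Prim1, the catalytic subunit of the primase that starts each new strand, had 9.17, 9.18 and 9.31 against 7.66, 8.12 and 7.81 in salivary tissue and fell there by 1.36, and by 0.75 in stomach. Its partner Prim2 missed the threshold in both tissues, with -0.60 (adjusted p = 0.0568) and -0.29 (adjusted p = 0.245). Pola1, the large subunit of the polymerase that works with primase, fell by 0.93 in salivary tissue and differed by -0.07 in stomach, and Pola2 passed in neither. Pold1 fell in stomach by 0.55 and missed the threshold in salivary tissue with -0.42 (adjusted p = 0.189), where its second probe set fell by 1.26 (adjusted p = 0.00701, limma).

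The sliding clamp and its loader fell by 5 of 5 genes in salivary tissue and by 4 of 5 in stomach. Pcna, the clamp that holds the polymerases on DNA, had 10.73, 10.78 and 10.91 on wild-type and 8.61, 9.39 and 8.87 on null salivary arrays. That is a difference of -1.85, or 3.61-fold (SE 0.19, adjusted p = 0.00118, limma). In stomach it had 10.21, 10.33 and 10.55 against 8.70, 9.90 and 9.06, a difference of -1.14 (adjusted p = 0.0168, limma). The loader subunits Rfc3, Rfc4 and Rfc5 fell by 1.27 to 1.41 in salivary tissue and by 0.84 to 0.91 in stomach. Rfc2 fell by 0.52 in salivary tissue and differed by -0.14 in stomach, with overlapping groups. The single-strand binding genes Rpa1 and Rpa2 fell in both, Rpa2 by 1.55 and 1.17 and Rpa1 by 0.78 and 0.57.

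The 2 lagging-strand genes parted. Lig1, the ligase that joins Okazaki fragments, fell by 0.76 in salivary tissue and by 0.83 in stomach. The lead probe set of Fen1, the flap nuclease that trims those fragments, had 9.18, 8.88 and 8.15 on wild-type and 8.98, 9.72 and 9.24 on null stomach arrays, a difference of 0.58 (adjusted p = 0.146). The other Fen1 probe set fell in the same stomach arrays by 1.56 (adjusted p = 0.0109) and in salivary tissue by 2.06 (adjusted p = 0.00272, limma), where the lead one differed by -0.67 (adjusted p = 0.0736). Fen1 therefore has no settled direction in stomach. Of 15 genes with several tested probe sets, Fen1 and Mcm7 had probe sets of opposite sign in stomach, and none did in salivary tissue. Probe sets of 1 gene differed in whether they passed for 7 of 15 genes in stomach and 4 of 15 in salivary tissue. In stomach the second probe sets of Rfc4 (-0.17, adjusted p = 0.657) and Mcm4 (-0.44, adjusted p = 0.0785, limma) missed the threshold that their lead ones passed.

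The deoxynucleotide genes had the largest median differences of the roles with more than 1 member, -1.84 in salivary tissue and -1.44 in stomach, and all 4 tested fell in both. Rrm2, the small subunit of ribonucleotide reductase that limits its activity, had 9.89, 10.18 and 9.96 on wild-type and 7.10, 7.63 and 7.17 on null salivary arrays. It fell there by 2.71, or 6.54-fold (SE 0.173, adjusted p = 0.000168, limma), the largest change of a tested member, and its other probe sets fell too, with differences of -3.57 and -2.68. In stomach Rrm2 had 9.03, 9.30 and 9.16 against 7.41, 8.36 and 7.97 and fell by 1.25. The large subunit Rrm1 had 8.97, 9.12 and 9.27 against 7.51, 7.64 and 7.38 in salivary tissue and fell by 1.61 there and by 1.32 in stomach. Tk1, the S-phase thymidine kinase, had 7.25, 7.53 and 7.59 against 5.51, 5.89 and 4.76 in salivary tissue and 8.12, 8.19 and 8.41 against 5.14, 7.09 and 6.06 in stomach. Its falls of 2.07 and 2.14 were alike in size, the null arrays varying more than the wild-type ones. Dut, which keeps dUTP out of DNA, fell by 1.58 and 1.55. Tyms, thymidylate synthase, was too dim to be tested in any tissue.

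The chromatin genes fell in full, 4 of 4 in each tissue. Uhrf1, which brings the maintenance methyltransferase to newly copied DNA, had 7.96, 8.31 and 8.21 on wild-type and 5.63, 6.21 and 5.78 on null salivary arrays, a difference of -2.29 (SE 0.195, adjusted p = 0.000575, limma). It fell by 1.10 in stomach. Hells, a chromatin remodeller of the same process, fell by 2.01 and 1.34, and Dnmt1, the methyltransferase, by 1.08 and 0.59. Chaf1b, a subunit of the assembly factor that places histones behind the fork, fell by 0.95 and 0.81. The recombination gene Rad54l fell by 2.12 in salivary tissue, from a mean of 6.81 to 4.69, and by 0.95 in stomach.

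**Figure D2:**
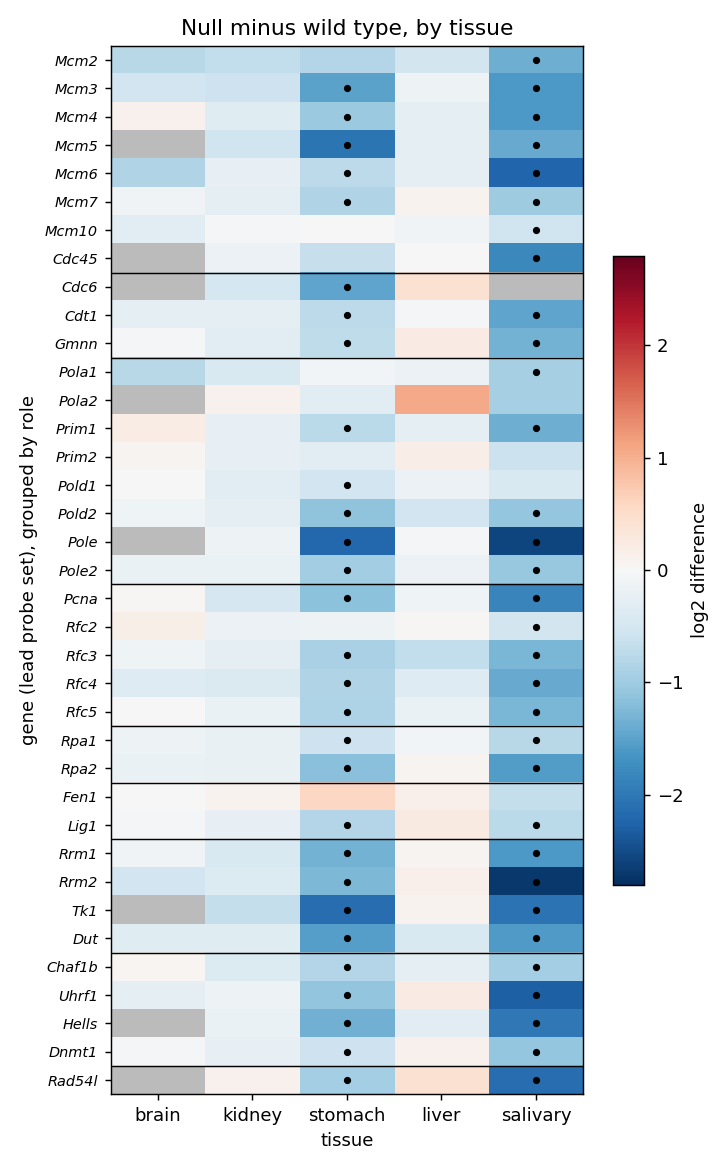
Null minus wild-type log2 difference of 37 replication genes (rows, grouped by role in the order of the text and divided by lines) in 5 tissues (columns); blue is lower in null, grey was not tested and a black point marks adjusted p under 0.05. Points fill 32 rows in salivary tissue and 29 in stomach and none in the other tissues.

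Of the 36 genes tested in both tissues, 27 fell in both, 5 in salivary tissue alone (Mcm2, Mcm10, Cdc45, Pola1 and Rfc2), 1 in stomach alone (Pold1) and 3 in neither. These counts include the members that passed the filter only through their wild-type values, such as Cdc45 in salivary tissue. The arrays of the 2 tissues are separate but may come from the same animals, and passing in 1 tissue alone does not show that the tissues differ. The effects themselves were compared in a fit of all 30 arrays, a comparison added after the data were seen. The salivary effect lay below the stomach effect for 6 of 37 members, where 3.01% of all genes lay so, and above it for none, against 4.41% of all genes. The 6 were Mcm6 (by 1.48), Rrm2 (by 1.46), Fen1 (by 1.24), Uhrf1 (by 1.19), Cdc45 (by 1.16) and Mcm10 (by 0.55). The null salivary mean of Cdc45 lay under the filter level, so the size of its difference rests partly on dim values. Without null stomach array 2 the count was 2, and without null salivary array 1 it was 3.

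Groups did not overlap, with null lower, for 35 of 36 members in salivary tissue, where 14.2% of all genes were so ordered, and for 29 of 37 in stomach, where 20.4% were. Both counts, and those that follow, include the members tested only through their wild-type values. With each array left out in turn, 20 of the 32 salivary calls and 16 of the 29 stomach calls were kept in all 6 fits, among them Mcm3, Mcm4, Mcm7, Rrm1, Rrm2, Tk1, Dut, Rpa2, Pold2, Pole2, Rfc5 and Uhrf1 in both. Counts fell to 20 without the second wild-type salivary array. In stomach they fell to 16 without wild-type array 2 or 3, 17 without null array 3 and 19 without null array 1.

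Other measures moved with genotype in these tissues. In stomach the gap between the 3' and the 5' Gapdh control probe set, which grows as RNA degrades, was 2.40, 3.11 and 2.28 on wild-type arrays and 3.97, 3.82 and 3.53 on null ones, with no overlap. The same gap of the Actb control was 1.47, 2.04 and 1.21 against 3.24, 2.36 and 2.39 on null stomach arrays, also with no overlap. With the Gapdh gap as a covariate no stomach member passed and 0.0236% of all genes were called lower, while the median member difference was -0.96. The part of RNA quality in the stomach result was not tested beyond this fit. In salivary tissue the Gapdh gap was 3.31, 3.02 and 3.38 against 3.16, 3.26 and 2.74 on the null arrays, which overlap. In liver the Gapdh gap was smaller in null, 3.91 to 4.16 against 4.25 to 4.81 in wild type, while the Actb gaps overlapped. Of 10 stomach markers tested 4 were lower and 2 higher in null stomach. The lower ones were Atp4a and Atp4b, the proton pump subunits of parietal cells (by 5.04 and 4.81), Pgc, the pepsinogen of chief cells (by 1.06), and Cblif, the gastric intrinsic factor (by 0.76), and the higher ones were the mucous cell genes Gkn2 (0.29) and Tff1 (0.27). The summed level of the 12 measured (log2 of the sum of linear signals) was 14.17 to 14.28 in wild type and 14.07 to 14.23 in null. Of 5 muscle markers tested the striated muscle genes Acta1 and Ckm were lower, by 1.26 and 1.19, and the smooth muscle genes Acta2 (0.24), Des (0.43) and Myh11 (-0.06) did not pass. The summed level of the 8 measured muscle markers was 12.82 to 12.96 in wild type and 13.00 to 13.14 in null. The part of these cell types in the members' fall was not tested. Alb was 5.93, 10.25 and 11.90 on the wild-type stomach arrays and 6.19 to 7.06 on the null ones. The summed level of 12 hepatocyte markers ranged from 11.41 to 14.14 in wild type and from 11.09 to 11.76 in null, and 2 of 9 tested were lower. The wild-type array with Alb at 5.93 alone exceeded all 3 null arrays for 32 of 37 members, a share not counted over all genes. Kept as the sole wild-type array it gave a median of -0.77 and no call, in a fit that takes its spread from the null arrays.

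In salivary tissue Ucp1, the uncoupling protein that defines brown fat, was 5.99, 4.04 and 12.14 on wild-type and 11.31, 12.75 and 11.02 on null arrays. The summed level of 4 brown fat markers ranged from 10.56 to 13.50 in wild type and from 12.93 to 14.18 in null, and none of the 4 passed the test. All 4 had a higher mean in null at an unadjusted p under 0.05, with a median difference of 2.39 and the largest in Ucp1 (4.30, adjusted p = 0.147, limma). The wild-type array of high Ucp1 had a member average of 8.21, the highest of the 6. It exceeded all 3 null arrays for 36 of 36 members, a share not counted over all genes. With Ucp1 as a covariate 21 members fell, with a median of -1.45. Kept as the sole wild-type array, the one of high Ucp1 gave a median of -1.46, in a fit that takes its spread from the null arrays. The part of brown fat in the members' fall was not tested beyond these fits. Of 6 salivary markers tested 1 was lower in null, the water channel gene Aqp5 (by 0.82), and 1 higher, the secreted protein gene Pip, from a mean of 8.29 to 10.29. The other 4 did not pass, Bpifa2 among them with -0.12, and the summed level of the 8 measured was 14.31 to 14.52 in wild type and 14.11 to 14.48 in null. Of 7 neural progenitor markers tested none passed, though the summed level of the 9 measured was 10.99 to 11.21 in wild type and 11.42 to 11.47 in null; Vim came nearest (0.44, adjusted p = 0.0595, limma). The erythroid markers moved both ways in salivary tissue. Of the 5 tested, Tfrc, the transferrin receptor of many dividing cells as well as red cell precursors, fell by 1.03, and the other 4 did not pass. Those 4 had higher means in null, Alas2 (0.95) and Klf1 (0.55) with no overlap, and the median difference was 0.12. The summed level of 11 measured erythroid markers was 10.06 to 10.31 in wild type and 9.47 to 9.81 in null, and Tfrc was by far the brightest of them. In stomach 0 of 5 passed and the ranges met, 10.06 to 10.71 against 9.54 to 10.18. The part of red cell precursors in the members' fall was not tested.

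**Figure D3:**
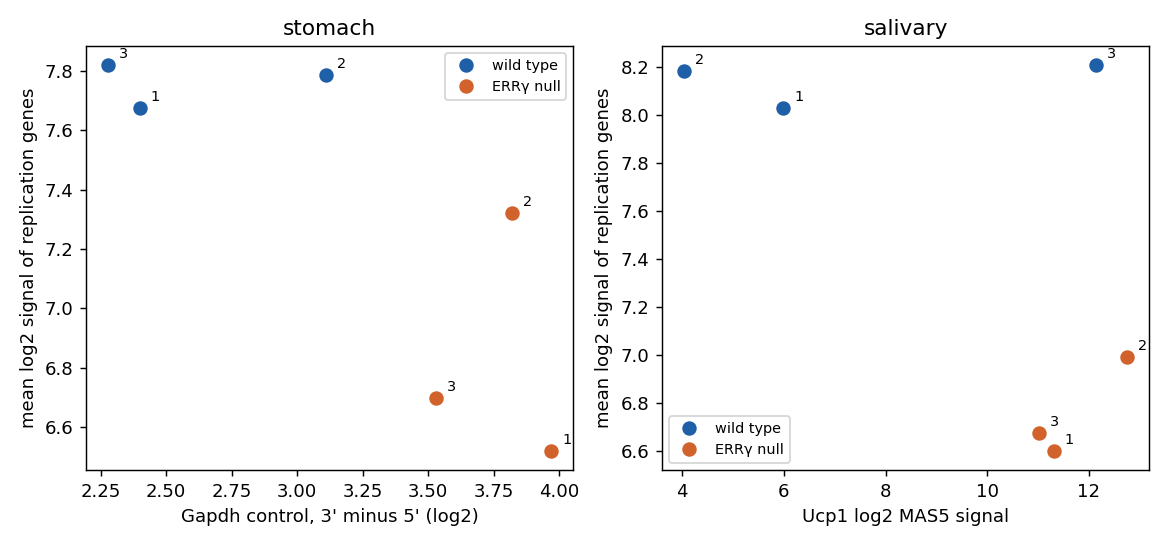
Mean log2 signal of the replication genes on each array (vertical) against the Gapdh 3' minus 5' difference in stomach (left) and the Ucp1 log2 signal in salivary tissue (right), with array numbers beside the points. In stomach the null arrays lie to the right of all wild-type arrays, from 3.53 to 3.97; in salivary tissue wild-type array 3 lies among the null arrays for Ucp1, at 12.14, and among the wild-type arrays for the replication genes.

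**Figure D4:**
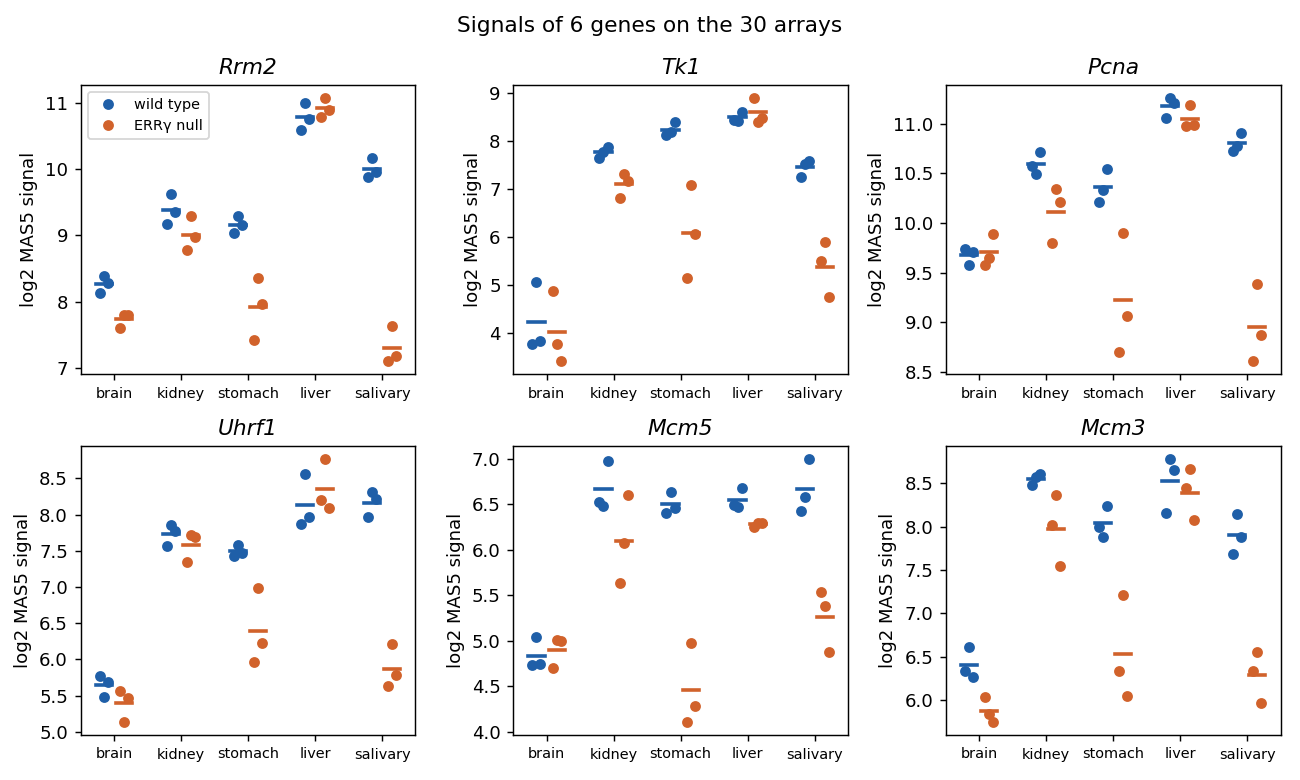
Log2 MAS5 signals of Rrm2, Tk1, Pcna, Uhrf1, Mcm5 and Mcm3 on all 30 arrays, by tissue, with group means as bars. Null points lie below wild-type points in stomach and salivary tissue in every panel, while the liver groups meet or overlap in all but Mcm5, where the wild-type values of 6.47 to 6.68 lie above all null ones.

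Other genes of the cell cycle were counted by lists that hold no member. Of 31 other replication genes tested, 13 fell in stomach and 13 in salivary tissue and none rose. Over all tested genes 12.2% fell in stomach and 4.37% in salivary tissue. In stomach and salivary tissue, in that order, the histone chaperone Nasp fell by 1.34 and 1.56, the checkpoint adaptor Topbp1 by 1.13 and 1.44 and the GINS subunit Gins1 by 1.09 and 1.51. Mitosis genes fell for 32 of 38 in stomach and 22 of 36 in salivary tissue, with medians of -0.80 and -0.82. Bub1b, a spindle checkpoint kinase, fell by 1.93 and 1.95, and Mki67, a marker of cycling cells, by 1.36 in stomach. In salivary tissue the mitosis median was smaller than the -1.37 of the replication genes, and in stomach the 2 medians were close; this difference between lists was not tested. Of other nucleotide synthesis genes 4 of 25 (16%) fell and 2 rose in stomach, near the 12.2% and 9.95% of all genes. In salivary tissue 5 of 26 (19.2%) fell, led by Dck, the deoxycytidine kinase of the salvage pathway (-1.86), and Mthfd1 of folate metabolism (-1.73). S-phase histone genes were barely covered, 3 being tested.

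Regulators of entry into S phase moved both ways. Of the E2F and G1 to S list, 11 of 21 fell in stomach and 8 of 22 in salivary tissue, against 12.2% and 4.37% of all genes. In the same order, Rbl1, a pocket protein that is itself an E2F target, fell by 0.95 and 1.68, Ccnd1, the cyclin that drives G1, by 1.09 and 1.32, and the repressor E2f8 by 1.69 and 1.25. Myc rose in stomach by 0.56. The kinase inhibitor Cdkn1a, known as p21, rose in salivary tissue by 2.32 (SE 0.374, adjusted p = 0.00736, limma), from a mean of 6.55 to 8.87. It rose by as much in null liver (2.38, SE 0.309, adjusted p = 0.00439, limma). Cdkn1c fell in the same 2 tissues, by 0.87 and 1.02. In stomach Cdkn2b, Cdkn2c and Cdkn2d fell and Cdkn1a differed by -0.11 (adjusted p = 0.664, limma).

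Members were also divided by their promoter letters, as a description. Of those with a promoter window and E2F letters 12 of 13 fell in salivary tissue with a median of -1.29, and of those without 16 of 18 fell with a median of -1.39. In stomach the counts were 13 of 14 (median -0.88) and 13 of 18 (median -0.86). Mitosis genes carried the E2F letters in 2 of 35 promoters (5.71%) and CCAAT in 27 (77.1%).

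In kidney 34 of 37 members lay below wild type on average, against 4040 of 8423 genes. The member median was -0.25, and no member passed. At an unadjusted p under 0.05 there were 13 members, all lower, where 7.27% of all genes were lower at that level. Groups did not overlap, with null lower, for 15 members, against 9.87% of all genes. Calls were rare in this tissue: 0.416% of all genes fell and 0.439% rose. Tk1 had 7.66, 7.77 and 7.88 against 6.81, 7.31 and 7.18, a difference of -0.67 (adjusted p = 0.0759), Rrm1 one of -0.42 (adjusted p = 0.116) and Pcna one of -0.48 (adjusted p = 0.146, limma). In each of the 3 the groups were apart. By lead probe set the only members above wild type were Rad54l (0.11), Pola2 (0.11) and Fen1 (0.10). The other probe sets of Rad54l (-0.46 and -0.51) and of Fen1 (-0.69) lay below wild type, with no overlap. Outside the set, Rbl1 fell by 0.72, Ube2c, a mitotic ubiquitin-conjugating enzyme, by 0.79 and the mitotic kinase Cdk1 by 0.56.

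In liver the members scattered about 0, with a median of -0.07 and 21 of 37 below wild type, against 4021 of 8413 genes. No member passed, where 3.72% of all genes fell and 3.35% rose. At an unadjusted p under 0.05, 3 of the 37 were lower and 1 was higher, where 11.4% of all genes were lower and 12.2% higher, and 6 did not overlap with null lower, against 13.3% of all genes. Rfc3 (-0.69, adjusted p = 0.0992), Mcm2 (-0.51, adjusted p = 0.124) and Pold2 (-0.54, adjusted p = 0.124) came nearest among the lower and Rad54l (0.42, adjusted p = 0.163) among the higher. Pola2 differed by 1.06 and Cdc6 by 0.42, both with overlapping groups; the wild-type Pola2 values of 5.45, 6.49 and 4.13 spread widely. In brain 29 members were bright enough to be tested, with a median of -0.12. Of these 21 lay below wild type, against 3807 of 8363 genes. At an unadjusted p under 0.05, there were 6 members, all lower, where 4.53% of all genes were lower. No gene of the array passed there (0% lower, 0% higher), and 5 members did not overlap with null lower, against 6.46% of all genes. Rrm2 had 8.13, 8.39 and 8.28 against 7.60, 7.79 and 7.80 (-0.54, adjusted p = 0.318), and Mcm6 (-0.85, adjusted p = 0.364) and Pola1 (-0.78, adjusted p = 0.382, limma) were also apart. By lead probe set Rfc2, Prim1 and Mcm4 lay above wild type by 0.17, 0.21 and 0.11. The other probe sets of Prim1 (-0.36) and Mcm4 (-0.69) lay below it. Among 16 genes with several tested probe sets in each tissue, all had the same sign for 8 in brain and 9 in liver.

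Over all 5 tissues, 33 of 37 members had a lower average in null and none a higher one, where 10.9% of all genes were lower and 11.4% higher. Among the members bright enough to be tested in all 5 tissues, the largest average falls were those of Rrm2 (-0.95), Mcm3 (-0.87), Mcm6 (-0.86) and Dut (-0.85). Cdc6 (-1.06), Pole (-1.03), Tk1 (-0.996) and Hells (-0.86) had averages of like or larger size, which include dim values: Cdc6 passed the filter in 3 tissues and the other 3 genes in all but brain. Pola2, Prim2, Rfc2 and Fen1 did not pass. The effect differed between tissues for 27 of 37 members by the F test, against 14.9% of all genes, so that an average hides large differences. Rrm2 ran from 0.14 in liver through -0.38 in kidney, -0.54 in brain and -1.25 in stomach to -2.71 in salivary tissue. The salivary effect was the lowest of the 5 for 32 members and the stomach effect for 5, counts not made over all genes.

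In wild-type newborns the replication genes were lowest in brain and highest in liver and salivary tissue. Each tissue was compared with the mean of the other 4 over 37 members. Brain is part of that mean for every other tissue, so low brain values raise the differences found there. In brain 33 members were lower and none higher, where 35.2% of all genes were lower and 31.7% higher, with a median of -1.28. Of the 29 members that passed the filter in brain itself, 25 were lower, with a median of -1.03. The other 8 (Mcm5, Cdc45, Cdc6, Pola2, Pole, Tk1, Hells and Rad54l) did not pass it there and enter through brighter tissues, so the size of their difference rests on brain values close to those of undetected genes. Among the 29, Uhrf1 (-2.23) and Cdt1 (-2.10) differed most. Among the 8, Tk1 had a mean of 4.23 ± 0.722 (SD, n = 3) in wild-type brain and between 7.46 and 8.50 in the other tissues, a difference of -3.76 (SE 0.195, adjusted p = 1.763e-10, limma). Pole differed by -3.11. Rfc2, Rfc3, Prim2 and Dnmt1 were the only members not lower in brain.

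In liver 24 members were higher and Pold2 (-0.87) alone was lower, where 25.0% of all genes were higher and 40.8% lower. Rrm2 had a mean of 10.79 ± 0.211 there, 1.58 above the other tissues (adjusted p = 3.573e-09, limma), with Tk1 (1.57), Cdt1 (1.38) and Mcm10 (1.27) next. Newborn liver still makes blood cells, and the red cell gene Slc4a1 averaged 10.93 in wild-type liver against 3.66 to 5.82 elsewhere. The part of blood-forming cells in the members' liver levels was not tested. In salivary tissue 24 members were higher and Rpa1 (-0.41) alone was lower, against 24.7% and 23.6% of all genes. Pole (1.23), Mcm6 (0.93), Uhrf1 (0.91) and Pole2 (0.89) led.

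In kidney 14 members were higher and none lower (27.0% and 18.1% of all genes). Mcm4 (0.40) was among them with a mean of 9.15, below 9.51 in liver and 9.28 in salivary tissue. Pole (1.24), Mcm3 (0.83), Tk1 (0.66) and Mcm5 (0.52) came first. Pole, Tk1 and Mcm5 did not pass the filter in brain, so these differences rest partly on dim brain values. The same holds for Pole in salivary tissue and for Tk1 in liver and stomach. Tk1 had a wild-type mean of 7.77 in kidney, below 8.24 in stomach and 8.50 in liver. The count that differed was 4 without wild-type kidney array 3 and 9 without array 2. In stomach 4 were higher and 8 lower (22.4% and 22.3% of all genes). Tk1 (1.25), Pold2 (0.52), Pold1 (0.34) and Rfc5 (0.31) were higher, and Fen1 (-0.76), Rfc4 (-0.51), Mcm10 (-0.48) and Rrm2 (-0.45) were lowest. Wild-type stomach arrays 2 and 3 carry the high Alb given above.

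**Figure D5:**
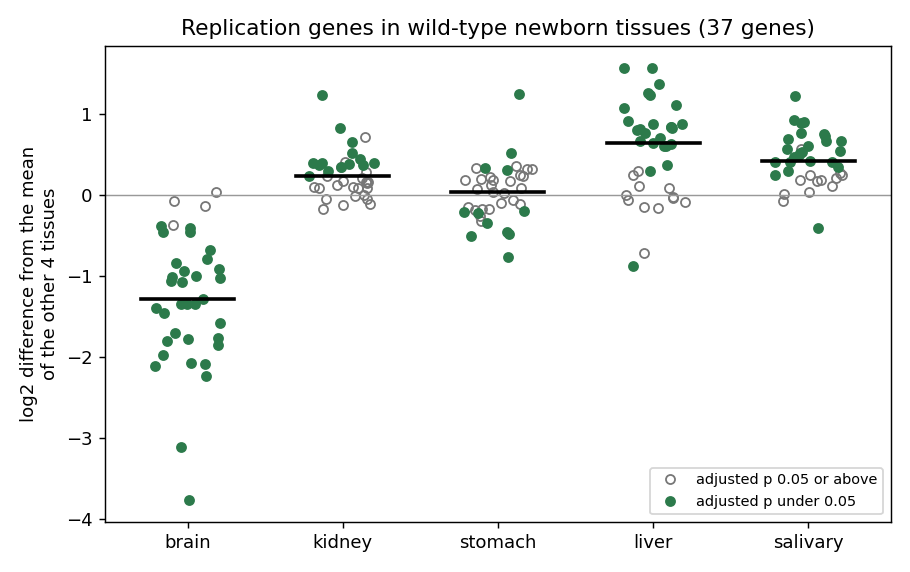
Difference of each of 37 replication genes in a wild-type tissue from the mean of the other 4 tissues (log2, points), with the median as a bar; filled points have adjusted p under 0.05. Medians run from -1.28 in brain to 0.64 in liver, with salivary tissue at 0.43.

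The order of tissues changed with genotype. On wild-type arrays the highest tissue was liver for 17 members, salivary tissue for 14, kidney for 5 and stomach for 1. On null arrays it was liver for 28, kidney for 8 and brain for 1, and salivary tissue for none. Salivary tissue was the lowest of the 5 for no member in wild type and for 11 in null, brain for 32 and 19. These orders were neither tested nor counted over all genes. They include dim members such as Rad54l, whose null means of 4.69 in salivary tissue and 5.10 in brain lay under the filter levels. The median wild-type member was 0.01 lower in liver than in salivary tissue, and in null it was 1.52 higher. Against brain the salivary median was 1.39 higher in wild type, with all 37 members higher, and 0.11 higher in null, with 23 of 37 higher.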

How the data were processed

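The deposited values are log2 MAS5 signals of Affymetrix MOE430A arrays, MAS5 per the submitters' processing notes and RNA extracted with Trizol per the labels. The MAS5 version and scaling target were not found in the labels. Base 2 was inferred, since with it the 2% trimmed mean of linear signals was 149.988 to 150.008 on every array. The file held 22690 probe sets; 64 array controls were set aside. The probe table, a platform annotation of older date, named 1 gene for 20380 probe sets, more than 1 for 691 and no gene for 1555. A further probe set shared by a member and another symbol was not used.

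Members, lists and tests were chosen with earlier results of these data known. No normalization was added. Per tissue, limma 3.58.1 (R 4.3.3; lmFit, then trended eBayes) fitted 3 null against 3 wild-type arrays; p-values were adjusted by Benjamini-Hochberg within the tissue, with a threshold of 0.05. A fit of 10 groups gave the average effect, the F test between tissues and the salivary against stomach effect, and a fit of 15 wild-type arrays the tissue levels. Both used probe sets bright enough in 1 tissue or more, 10130 genes by lead probe set. Named by rule are up to 8 falls and 8 rises per tissue by size, or the 3 with the smallest p where fewer than 3 passed, up to 8 by average effect, the 6 smallest p of the F test, up to 4 per direction in a wild-type tissue, and up to 4 per other list. Same-numbered null and wild-type arrays did not deviate together (correlations from -0.239 to 0.143, 1 of 15 over 0.1), so no block was used. The fits were tested on simulated data with known changes. The number of arrays limits the precision. Alternatives are given in the closing section.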

Additional observations from a re-analysis of the deposited data

Results flagged for a closer look

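The null effect differed between the 5 tissues for 27 members by the F test of the 30-array fit. The 6 members with the smallest p of that test were Rrm2 (adjusted p = 5.559e-07), Uhrf1 (4.64e-05), Mcm4 (0.0001021), Rrm1 (0.0001681), Pcna (0.000262) and Prim1 (0.000262), all from limma with 3 arrays per group. In each of the 6 the lowest effect was that in salivary tissue: -2.71, -2.29, -1.61, -1.61, -1.85 and -1.36 in that order. In liver the same genes had 0.14, 0.22, -0.25, 0.08, -0.12 and -0.25.

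The salivary effect lay below the stomach effect for 6 members in a direct comparison, with differences of -1.48 for Mcm6, -1.46 for Rrm2, -1.24 for Fen1, -1.19 for Uhrf1, -1.16 for Cdc45 and -0.55 for Mcm10. For Fen1 it rests on the lead probe set, whose stomach value has the sign opposite to that of the other one. For Cdc45 it rests partly on null salivary values with a mean under the filter level.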

How the results depend on the processing

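No member called lower in salivary tissue or stomach by its lead probe set changed sign under an alternative that keeps that probe set; 1 of the other Mcm7 probe sets had the opposite sign in stomach (0.08, adjusted p = 0.64, limma). In stomach the count of 29 was 0 with the Gapdh difference as a covariate (median -0.96), 2 with Alb as a covariate (median -0.82) and 0 with both high-Alb wild-type arrays left out (median -0.77). In salivary tissue the count of 32 was 21 with Ucp1 as a covariate and 2 without the wild-type arrays of low Ucp1, both chosen after seeing the data. In liver the count was 2 with all 30 arrays in 1 fit. The cause of these shifts was not tested, beyond the fewer arrays or degrees of freedom of each fit.

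With each array left out in turn, counts ran from 0 to 0 in brain, 0 to 2 in kidney, 0 to 1 in liver, 20 to 29 in salivary tissue and 16 to 32 in stomach. They ran from 33 to 34 for the average effect, 26 to 29 for the F test and 2 to 9 for the salivary effect below the stomach effect. For members that differ in a wild-type tissue they ran from 29 to 33 in brain, 4 to 13 in kidney, 8 to 11 in stomach, 24 to 26 in liver and 20 to 25 in salivary tissue. With the replicate number as a block, 25 members fell in salivary tissue and 27 in stomach. With arrays of 1 genotype and number as a random block, added after the data were seen because their Xist levels went together, 33 members were lower on average, 28 differed between tissues and 6 had a lower salivary effect. The other counts, under filters, a floor, quantile scaling, equal medians, no trend, array weights and all probe sets, were within 1.5 times those in the text. MAS5 signals near the filter level bound the size of falls in Pole, Mcm5, Cdc6 and Rad54l.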
